A study of Mus musculus with 18 samples.

Results

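The 10 genes described here encode activating or costimulatory receptors of natural killer (NK) cells and the small adaptors that carry their signals. They were *Ncr1*, *Cd226*, *Cd244a*, *Cd160*, *Slamf6*, *Slamf7*, *Crtam*, *Hcst*, *Sh2d1a* and *Sh2d1b1*, taken by name from the lymphocyte table, which listed 54309 genes. All 10 passed the filter on low counts, which left 13594 genes for testing. Bulk RNA-seq had been made from type 1 lymphocytes of female C57BL6/J mice aged 8 to 10 weeks at the start, with no engineered allele in any group. MC38 cells, a mouse colon adenocarcinoma line, had been injected into the spleen of every donor mouse, and the spleen was then removed. Livers were taken 20 days later, and each library came from a pool of 6 to 8 samples, so that no library stands for a single animal.

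All 4 populations compared were gated as live lineage-negative CD45+ NKp46+ cells, with 3 libraries each. NK cells of metastasis-free liver (MFL NK cells) were CD49a- CD49b+. ILC1 of metastasis-free liver (MFL ILC1), the liver-resident type 1 innate lymphoid cells, were CD49a+ CD49b-. From liver metastasis (LM) came CD49a- CD49b+ NK cells (CD49a- LM NK cells) and CD49a+ CD49b+ cells (CD49a+ LM NK cells), and the titles of the latter libraries call them ILC1 although their population label calls them NK cells. LM was digested with enzymes and MFL was smashed and filtered, so site and dissociation cannot be told apart. The CD49a+ cells also differed in the CD49b gate between the sites, so site and that gate cannot be told apart either. The comparisons ask whether NK cells that carry CD49a in metastasis hold the receptor repertoire of NK cells or that of ILC1.

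NK cells integrate signals from many germline-encoded receptors. NKp46, the product of *Ncr1*, signals through ITAM-bearing adaptors. DNAM-1, encoded by *Cd226*, binds the poliovirus receptor and nectins on target cells, and CRTAM binds the nectin-like molecule Cadm1. CD160 binds the herpesvirus entry mediator and costimulates NK cells. The SLAM family receptors 2B4 (*Cd244a*), CRACC (*Slamf7*) and Ly108 (*Slamf6*) bind CD48 or their own kind on neighbouring blood cells, and their tails recruit the adaptors SAP (*Sh2d1a*) and EAT-2 (*Sh2d1b1*). DAP10, encoded by *Hcst*, is the signalling partner of NKG2D.

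The libraries held between 8795721 and 14386834 estimated counts, and levels are given as CPM, counts scaled to the size of the library. The 9 NK cell marker genes summed to 5288 to 6871 CPM in MFL NK cells, 4534 to 5924 in CD49a- LM NK cells, 2606 to 3353 in CD49a+ LM NK cells and 1691 to 2013 in MFL ILC1. The 8 ILC1 marker genes ran the other way, with 27.1 to 42.5 CPM in MFL NK cells, 32.5 to 74.6 in CD49a- LM NK cells, 230 to 294 in CD49a+ LM NK cells and 1826 to 1860 in MFL ILC1. These sums and the sort labels went the same way in all 4 populations. The lists include *Ncr1*, *Itga2* and *Itga1*, the genes of NKp46, CD49b and CD49a, so this was partly set by the gates. Not every marker followed its sum: *Eomes* had 500, 658 and 902 CPM in CD49a+ LM NK cells. It had 563, 721 and 721 CPM in MFL NK cells and 40.2, 13.2 and 7.58 in MFL ILC1. LM libraries of a population differed more from each other than MFL libraries, with a root mean square deviation from the population mean of 1.22 to 1.53 on the log2 scale against 0.559 to 1.08.

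In the reported fit, more of the 10 genes passed the test between CD49a+ LM NK cells and MFL ILC1 than in any other comparison made. These populations both carry CD49a, and 6 of the 10 genes passed, beside 3.46% of all tested genes. With only the compared libraries in the fit the order turned, with 4 genes here and 5 between MFL ILC1 and MFL NK cells. *Cd226*, *Cd160*, *Slamf7*, *Cd244a* and *Ncr1* were lower in CD49a+ LM NK cells than in MFL ILC1, and *Sh2d1a* was higher. The calls of *Ncr1* and *Sh2d1a* each held in only 9 of 19 alternatives, and those of the other genes in all 19. Within LM, none of the 10 passed the test between CD49a+ and CD49a- NK cells. In MFL, *Cd226*, *Cd160* and *Slamf7* were higher in ILC1 than in NK cells. By the test of the interaction that difference was smaller in LM for *Cd226* and *Cd160*, and its sign turned for *Slamf7*. The interaction call held in 17 of 18 alternatives for *Cd226* and 16 for *Slamf7*, but in only 8 for *Cd160*. The plot of the 10 genes by library shows these levels.

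**Figure D1:**
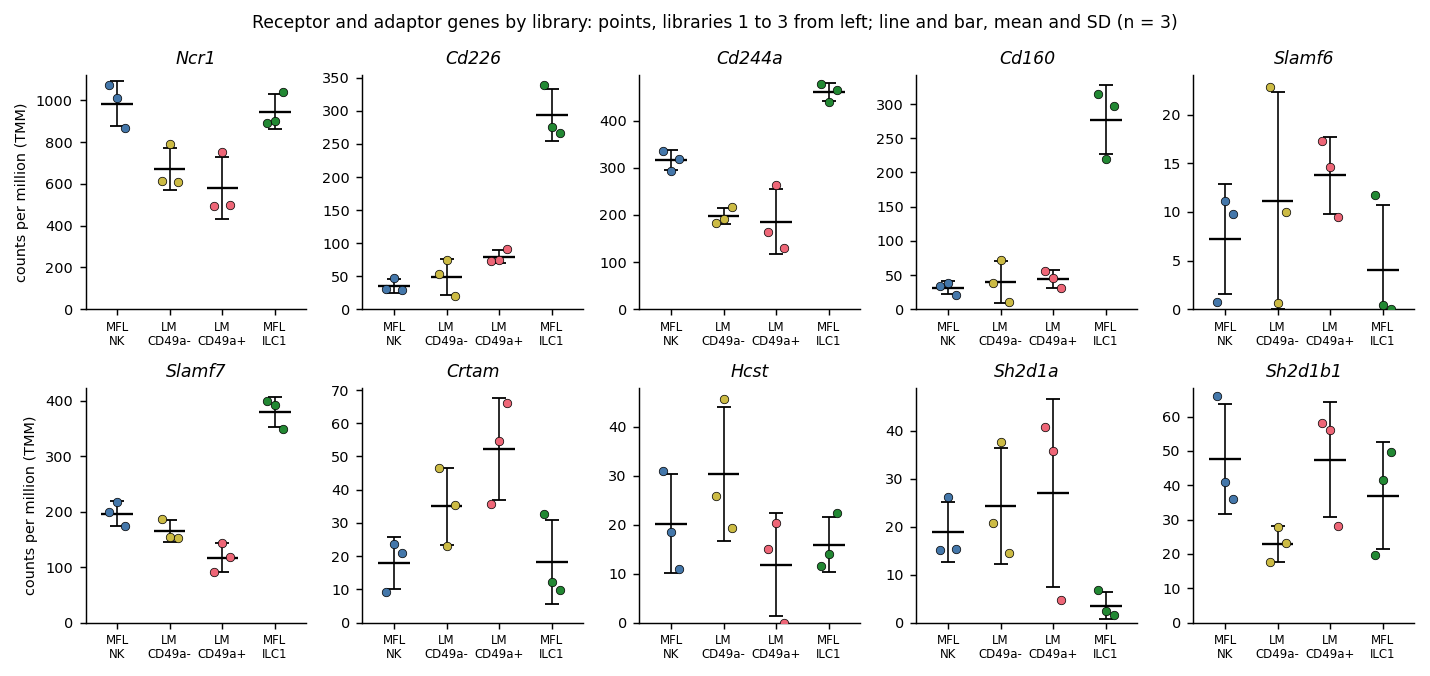
CPM (TMM-scaled, linear axis from 0, one panel per gene) of the 10 receptor and adaptor genes in the 12 lymphocyte libraries. Points are libraries 1 to 3 from left to right in each population, the line is the mean and the bar its SD (n = 3). *Cd226*, *Cd160* and *Slamf7* stand apart in MFL ILC1, where *Slamf7* lies between 349 and 399 CPM and no other library exceeds 217.

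The bases before the transcription start are shown for *Ncr1*, *Cd160* and *Slamf7*. *Ncr1* was chosen because its product was a sorting marker, and the other genes because they passed the test of the interaction below. *Cd226* passed it too, but its window held none of the letters named here and is not shown. Each run holds the 250 bases upstream of the canonical transcript of GENCODE vM39 in GRCm39, 5′ to 3′ on the strand of the gene, and overlaps no annotated exon. Capitals mark the letters TGTGGT (RUNX core), GGTGTG (T-box core), GGAAGT (ETS core) and TGANTCA (AP-1 site), or their reverse complement. The windows are chr7:4340460-4340709 (+) for *Ncr1*, chr3:96721849-96722098 (-) for *Cd160* and chr1:171476581-171476830 (-) for *Slamf7*.
Ncr1: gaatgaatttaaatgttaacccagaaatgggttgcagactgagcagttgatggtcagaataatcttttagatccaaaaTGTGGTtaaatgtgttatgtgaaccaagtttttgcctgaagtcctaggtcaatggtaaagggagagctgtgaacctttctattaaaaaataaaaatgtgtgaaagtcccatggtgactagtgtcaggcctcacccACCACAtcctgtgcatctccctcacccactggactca
Cd160: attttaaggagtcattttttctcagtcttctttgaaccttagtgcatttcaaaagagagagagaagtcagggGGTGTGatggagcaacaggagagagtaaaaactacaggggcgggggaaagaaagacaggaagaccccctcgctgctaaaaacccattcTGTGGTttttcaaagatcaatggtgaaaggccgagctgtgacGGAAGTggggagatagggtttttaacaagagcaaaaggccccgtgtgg
Slamf7: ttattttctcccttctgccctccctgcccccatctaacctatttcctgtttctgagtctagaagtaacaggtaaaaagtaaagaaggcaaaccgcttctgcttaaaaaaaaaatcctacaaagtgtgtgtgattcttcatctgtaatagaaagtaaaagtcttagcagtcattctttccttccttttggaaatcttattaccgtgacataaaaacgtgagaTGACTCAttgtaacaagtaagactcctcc

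The *Ncr1* window held the RUNX core at 172 and, on the other strand, at 37 bases before the start. The *Cd160* window held the T-box core at 178, the RUNX core at 90 and the ETS core at 48 bases, whereas the *Slamf7* window held only the AP-1 letters, at 29 bases. Of 21770 windows of protein-coding genes, 13% held the RUNX core, 16.6% the T-box core, 19% the ETS core and 6.17% the AP-1 letters on either strand. Among the windows of the 10 genes these letters occurred in 4, 3, 2 and 3. These matches describe letters and not binding.

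*Ncr1* lies on chromosome 7 (4340710 to 4348171, GRCm39) and was the most abundant of the 10 per kilobase of merged exons in every population, at 631 CPM per kb in MFL NK cells and 373 in CD49a+ LM NK cells. Its level was 1076, 1011 and 866 CPM in MFL NK cells, 614, 790 and 611 in CD49a- LM NK cells, 495, 752 and 498 in CD49a+ LM NK cells and 894, 901 and 1043 in MFL ILC1. Both LM populations lay below both MFL populations without overlap. It was 1.63-fold lower in CD49a+ LM NK cells than in MFL ILC1 (log2 fold change -0.70 ± 0.20 SE, adjusted p = 0.0804; every adjusted p here is from the quasi-likelihood test of edgeR, Benjamini-Hochberg adjusted over all tested genes, unless another tool is named). This call was lost without any 1 of the MFL NK or MFL ILC1 libraries, or without CD49a+ LM replicate 1 or 3, with adjusted p of up to 0.333, and with only the compared libraries in the fit (adjusted p = 0.13). Against MFL NK cells the change was -0.76 ± 0.20 with an adjusted p of 0.145, and without CD49a+ LM replicate 2 it was -0.99 with an adjusted p of 0.0417. NKp46 protein was part of every gate, so the values compare levels within populations sorted as NKp46+. In these bulk libraries fewer cells expressing a gene and less RNA per cell cannot be told apart, here and below.

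*Cd226* on chromosome 18 (89195087 to 89290353) had the levels 30.4, 47.8 and 28.5 CPM in MFL NK cells and 339, 276 and 267 CPM in MFL ILC1. In LM it was 53.8, 74.1 and 20.3 CPM in CD49a- and 72.7, 74.8 and 90.9 CPM in CD49a+ NK cells. The order of the means was MFL ILC1, CD49a+ LM, CD49a- LM and MFL NK cells, and among these neighbours only ILC1 and CD49a+ LM cells did not overlap. It was 8.27-fold higher in MFL ILC1 than in the NK cells of MFL (log2 fold change 3.05 ± 0.38 SE, adjusted p = 2.66e-05). In CD49a+ LM NK cells it was 3.70-fold lower than in MFL ILC1 (log2 fold change -1.89 ± 0.36, adjusted p = 0.0042). These 2 calls held in all 19 alternatives. Against MFL NK cells, every CD49a+ LM library was higher, but the difference of 1.16 ± 0.35 did not pass (adjusted p = 0.25). Without CD49a- LM replicate 2 or 3, which share the estimate of the spread, the adjusted p of that difference was 0.0973 and 0.0679.

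*Crtam*, on chromosome 9 (40880987 to 40915924), was a gene of low level. It had 9.06, 23.7 and 21.1 CPM in MFL NK cells, 46.5, 23.2 and 35.3 in CD49a- LM NK cells, 35.8, 54.8 and 66.2 in CD49a+ LM NK cells and 32.8, 12.2 and 9.76 in MFL ILC1. All CD49a+ LM libraries lay above all MFL libraries. The differences of 1.54 ± 0.58 from MFL NK cells (adjusted p = 0.393) and of 1.52 ± 0.58 from MFL ILC1 (adjusted p = 0.221) did not pass the test. The 95% interval of the latter ran from 0.32 to 2.72, and DESeq2 called it (adjusted p = 0.0763), as did limma-voom with quality weights (adjusted p = 0.00735).

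*Cd160*, on chromosome 3 (96706079 to 96736667), followed *Cd226*. It had 34.5, 38.9 and 20.8 CPM in MFL NK cells and 315, 220.3 and 297 CPM in MFL ILC1. The LM libraries had 39.0, 72.0 and 10.6 CPM in CD49a- and 56.2, 45.8 and 30.4 CPM in CD49a+ NK cells. The 3 NK populations overlapped one another, and every ILC1 library was above every NK library. It was 8.82-fold higher in MFL ILC1 than in the NK cells of MFL (log2 fold change 3.14 ± 0.52, adjusted p = 0.00221) and 6.28-fold lower in CD49a+ LM NK cells than in MFL ILC1 (-2.65 ± 0.51, adjusted p = 0.00925). Both calls held in all 19 alternatives. Per kilobase it was the second of the 10 in MFL ILC1, at 104 ± 18.9 (SD) CPM per kb, within its spread of *Cd244a* at 93.4 ± 3.9. In MFL NK cells it was the sixth, at 11.8 ± 3.57 CPM per kb.

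The 3 SLAM receptors lie in one cluster on chromosome 1, *Cd244a* at 171386708 to 171437315, *Slamf7* at 171459966 to 171480603 and *Slamf6* at 171745057 to 171780737. *Slamf7* had 199.7, 217 and 173 CPM in MFL NK cells, 187, 155 and 153 in CD49a- LM NK cells, 90.4, 143 and 119 in CD49a+ LM NK cells and 399, 393 and 349 in MFL ILC1. It was the only one of the 10 genes whose CD49a+ LM libraries lay below those of all 3 other populations and whose ILC1 libraries lay above all. It was 3.24-fold lower in CD49a+ LM NK cells than in MFL ILC1 (log2 fold change -1.70 ± 0.23, adjusted p = 0.000138), a call that held in all 19 alternatives. In MFL ILC1 it was 1.93-fold higher than in MFL NK cells (0.95 ± 0.22, adjusted p = 0.0209), with adjusted p of 0.165 without MFL NK replicate 3 and 0.111 without MFL ILC1 replicate 2. Against CD49a- LM NK cells the difference was -0.49 ± 0.22 (adjusted p = 0.416) and against MFL NK cells -0.75 ± 0.22 (adjusted p = 0.24).

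*Cd244a* had 336, 294 and 319 CPM in MFL NK cells, 183, 192 and 216 in CD49a- LM NK cells, 164, 264 and 130.1 in CD49a+ LM NK cells and 477, 439.6 and 465 in MFL ILC1. As with *Ncr1*, both LM populations lay below both MFL populations. It was 2.48-fold lower in CD49a+ LM NK cells than in MFL ILC1 (log2 fold change -1.31 ± 0.24, adjusted p = 0.00273), and this held in all 19 alternatives. MFL ILC1 lay above MFL NK cells by 0.54 ± 0.23, which did not pass (adjusted p = 0.447). Limma-voom with quality weights called that difference (adjusted p = 0.000217), as did the fit of only the compared libraries (adjusted p = 0.0303). From MFL NK cells it differed by -0.77 ± 0.23 in CD49a+ LM (adjusted p = 0.25) and -0.68 ± 0.23 in CD49a- LM NK cells (adjusted p = 0.724), neither past the test. Without CD49a+ LM replicate 2, the first of these was -1.11 with an adjusted p of 0.0293. *Ly9* lies within the *Cd244a* locus on the opposite strand, and whether the counting used strand is not given in the sources used here.

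*Slamf6* was near the lower end of detection, with 0 to 22.8 CPM over the 12 libraries. It had 0.735, 11.1 and 9.76 CPM in MFL NK cells, 22.8, 0.665 and 10 in CD49a- LM NK cells, 17.2, 14.6 and 9.47 in CD49a+ LM NK cells and 11.7, 0.439 and 0 in MFL ILC1. Libraries of 1 population differed widely except in CD49a+ LM NK cells, and the interval of every difference included 0. That between CD49a+ LM NK cells and MFL ILC1 ran from -1.53 to 5.06 on the log2 scale, so no difference passed at this depth. MFL ILC1 replicate 1 decided the size: without it the difference was 5.86 (adjusted p = 0.286), and that between ILC1 and NK cells of MFL moved from -0.83 to -4.93 (adjusted p = 0.472). Limma-voom with quality weights, which weights each library by its spread, called both, at 5.95 (adjusted p = 0.012) and -5.36 (adjusted p = 0.00179).

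Among the adaptors, *Sh2d1a* on chromosome X (41591330 to 41618207), which links SLAM receptors to the kinase Fyn, had 15.2, 26.2 and 15.3 CPM in MFL NK cells and 20.7, 37.7 and 14.5 in CD49a- LM NK cells. It had 40.9, 35.7 and 4.68 CPM in CD49a+ LM NK cells and 6.79, 2.34 and 1.52 in MFL ILC1. It was 7.61-fold higher in CD49a+ LM NK cells than in MFL ILC1 (log2 fold change 2.93 ± 0.88, adjusted p = 0.0969), although CD49a+ LM replicate 3 lay below MFL ILC1 replicate 1. The call was lost without any 1 of the MFL NK libraries, CD49a+ LM replicate 1 or 2, or MFL ILC1 replicate 2 or 3, with adjusted p of up to 0.354, and with only the compared libraries in the fit (adjusted p = 0.173). Without MFL ILC1 replicate 1 the difference was 3.80 (adjusted p = 0.0843). All ILC1 libraries lay below all MFL NK libraries, by -2.41 ± 0.86 on the log2 scale, but this did not pass (adjusted p = 0.231). Of 19 alternatives 3 called it. These were DESeq2 (adjusted p = 0.0523), limma-voom with quality weights (adjusted p = 0.00228) and only the compared libraries in the fit (adjusted p = 0.0499).

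*Sh2d1b1* on chromosome 1 (170104824 to 170114338) had 66.0, 41.0 and 35.9 CPM in MFL NK cells, 17.6, 27.9 and 23.1 in CD49a- LM NK cells, 58.2, 56.1 and 28.2 in CD49a+ LM NK cells and 19.6, 41.4 and 49.8 in MFL ILC1. CD49a- LM libraries lay below those of MFL NK and of CD49a+ LM NK cells without overlap. The difference between the LM populations was 1.05 ± 0.48 (adjusted p = 0.416). Its paralog *Sh2d1b2* lies 23.6 kb away. Reads shared by the near copies may make the values of both uncertain, which was not tested. *Hcst* on chromosome 7 (30117135 to 30119297) had 31, 18.6 and 11 CPM in MFL NK cells, 25.7, 45.6 and 19.4 in CD49a- LM NK cells, 15.1, 20.4 and 0 in CD49a+ LM NK cells and 11.5, 14.0 and 22.4 in MFL ILC1. Its populations overlapped in all 5 comparisons of populations, none of its differences passed the test, and the interval of that between the LM populations ran from -3.59 to 0.88 on the log2 scale. Per kilobase *Hcst* was the fourth of the 10 in MFL NK cells, at 27.2 ± 13.6 CPM per kb.

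**Figure D2:**
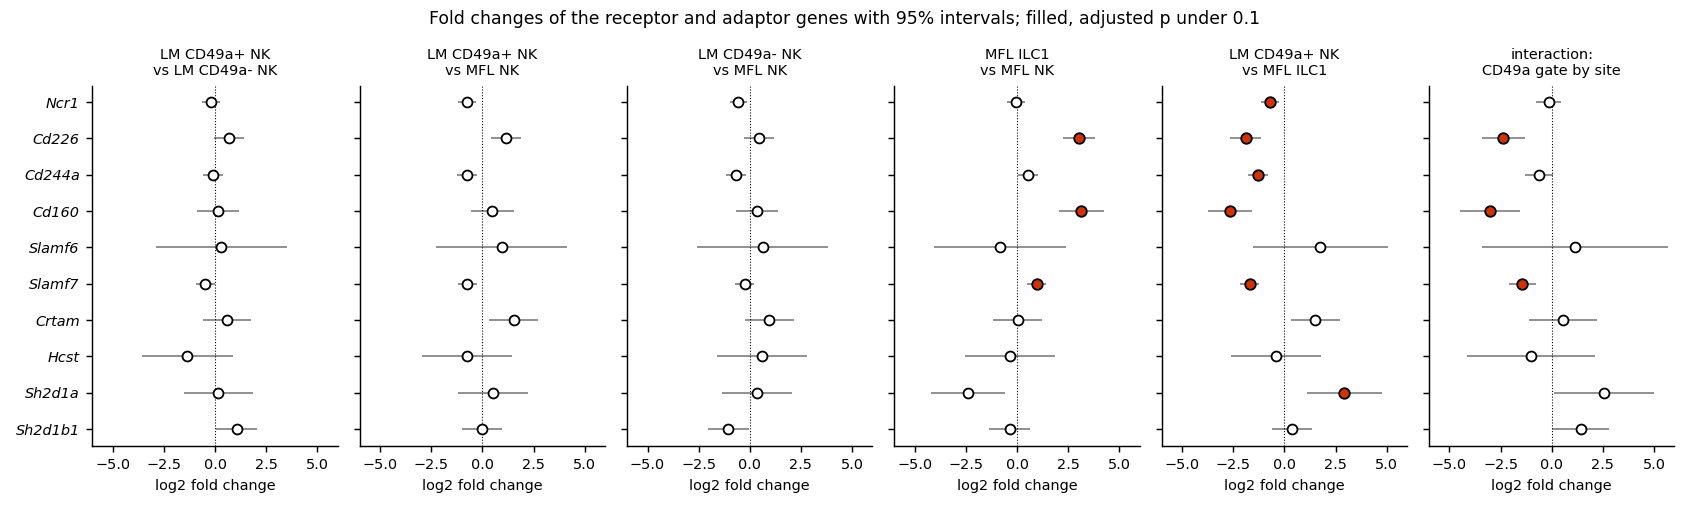
Log2 fold change (horizontal axis) of each of the 10 genes in the 6 comparisons, one panel each, with its 95% interval. Filled points passed an adjusted p under 0.1 and open points did not. The filled points lie in the 3 panels that involve MFL ILC1: 3 genes against MFL NK cells, 6 genes in CD49a+ LM NK cells against ILC1 and 3 genes in the interaction.

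Counted together, 0 of the 10 genes passed between CD49a+ and CD49a- LM NK cells, where edgeR called 0.177% of all tested genes, and 2 had an unadjusted p under 0.05, as had 11.7% of all genes. None of the alternatives called any of the 10 in that comparison, DESeq2 included. Between CD49a+ LM and MFL NK cells 0 passed, beside 0.706% of all genes, with 5 at an unadjusted p under 0.05 (9.68% of all genes). DESeq2 called 4 (*Ncr1*, *Cd226*, *Cd244a* and *Slamf7*), among 589 genes in all. Leaving out CD49a- LM replicate 2, CD49a- LM replicate 3 or CD49a+ LM replicate 2 gave 2, 1 and 2 calls. Between CD49a- LM and MFL NK cells 0 passed, beside 0.0441% of all genes, with 3 at an unadjusted p under 0.05 (6.6% of all genes) and 0 called by DESeq2. Between MFL ILC1 and MFL NK cells 3 of 10 passed, all higher in ILC1, where 3.21% of all genes passed and 1.43% passed as higher. Between CD49a+ LM NK cells and MFL ILC1 6 of 10 passed, 5 of them lower in CD49a+ LM cells, where 3.46% of all genes passed and 1.24% passed as lower.

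Separation of the libraries gave a broader view. The libraries of CD49a+ and CD49a- LM NK cells did not overlap for 2 of the 10 genes, *Slamf7* and *Sh2d1b1*, against 9.82% of all tested genes. CD49a+ LM and MFL NK cells did not overlap for 5 (*Ncr1*, *Cd226*, *Cd244a*, *Slamf7* and *Crtam*), against 20.1%, and CD49a- LM and MFL NK cells for 3 (*Ncr1*, *Cd244a* and *Sh2d1b1*), against 16.2%. MFL ILC1 and MFL NK cells did not overlap for 5 (*Cd226*, *Cd244a*, *Cd160*, *Slamf7* and *Sh2d1a*), against 25.3%, and CD49a+ LM NK cells and MFL ILC1 for 6 (*Ncr1*, *Cd226*, *Cd244a*, *Cd160*, *Slamf7* and *Crtam*), against 23.2%. With 3 libraries against 3, an exact two-sided permutation test of a single gene cannot go below 0.1. Comparisons that share MFL NK, CD49a+ LM or MFL ILC1 libraries are not independent of each other.

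The interaction tested whether the difference between CD49a+ and CD49a- cells was the same at both sites. It passed for 3 of the 10 genes, all with a lower signed CD49a+ difference in LM. Of all genes, 1.04% passed and 0.419% passed in that direction. For *Cd226* the difference was 3.05 in MFL and 0.69 in LM, an interaction of -2.36 ± 0.50 (adjusted p = 0.0272). For *Cd160* it was 3.14 in MFL and 0.12 in LM, an interaction of -3.02 ± 0.70 (adjusted p = 0.071). For *Slamf7* the sign turned, from 0.95 in MFL to -0.49 in LM, an interaction of -1.44 ± 0.32 (adjusted p = 0.034).

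The *Cd226* interaction was called without each library in turn (adjusted p of at most 0.0956) but not by limma-voom with quality weights (-1.55, adjusted p = 0.37). That of *Slamf7* was lost without MFL NK replicate 3 (adjusted p = 0.134) and without MFL ILC1 replicate 2 (adjusted p = 0.125). That of *Cd160* was lost without any 1 library other than CD49a- LM replicate 2 or 3 or MFL ILC1 replicate 2, with adjusted p of up to 0.22, and by limma-voom (-1.87, adjusted p = 0.528), and without CD49a- LM replicate 2 it was -2.30. For *Cd244a* the interaction was -0.63 ± 0.33 and for *Ncr1* -0.15 ± 0.29, neither past the test (adjusted p = 0.627 and 0.98). The plot by site and gate shows the genes whose interaction passed.

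**Figure D3:**
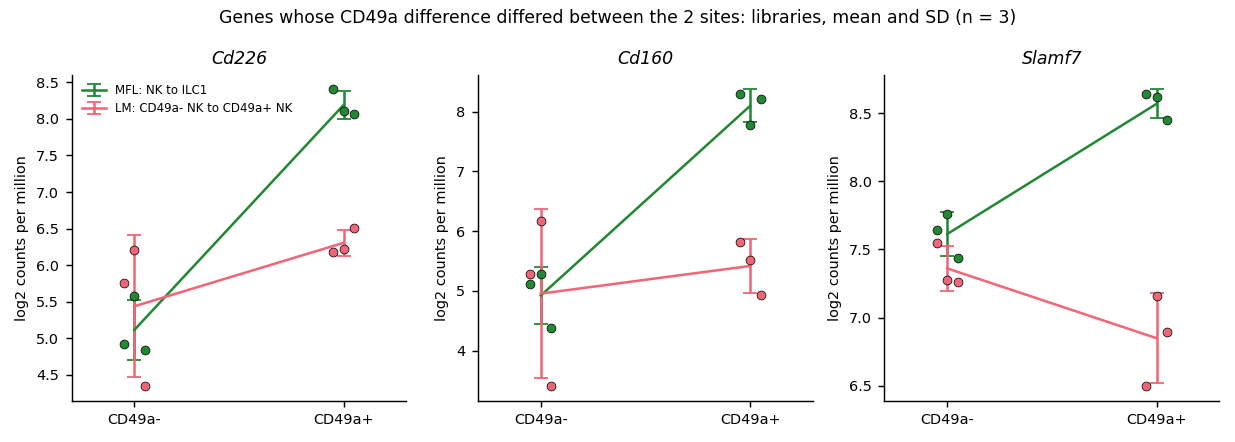
Log2 CPM (vertical axis, not starting at 0) of *Cd226*, *Cd160* and *Slamf7* in CD49a- and CD49a+ cells of MFL (green, NK cells to ILC1) and LM (red, CD49a- to CD49a+ NK cells). Points are libraries, lines join the means and bars are SD (n = 3); the MFL lines rise in all 3 panels, and the LM line of *Slamf7* falls.

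Markers of other cells moved along with some of these populations. The 9 T cell genes summed to 95.9 to 173 CPM in MFL NK cells, 104 to 227 in CD49a- LM NK cells, 212 to 258 in CD49a+ LM NK cells and 621 to 1035 in MFL ILC1. In the ILC1 libraries *Cd3g* had 224 to 668 CPM, *Trbc1* 184 to 254, *Trbc2* 87.1 to 118, *Trac* 1.42 to 11.6, *Cd8a* 3.29 to 6.28, *Cd4* 1.99 to 5.09, *Cd3d* 0 to 4.83, *Cd8b1* 0 to 1.78 and *Cd3e* 0 to 0.366. The 10 dissociation response genes summed to 5104 to 9934 CPM in CD49a- LM NK cells, 5543 to 7372 in CD49a+ LM NK cells, 3479 to 4407 in NK cells of MFL and 3134 to 5119 in ILC1. Their highest values thus lay in LM, although the ranges of ILC1 and CD49a- LM NK cells overlapped. Of the 10 receptor and adaptor genes, *Ncr1* and *Cd244a* had their lower values in LM, and the others did not separate by site. The 6 hepatocyte genes reached 118 CPM in MFL NK cells and 87.0 in MFL ILC1 against 13.1 in LM libraries, and the 10 macrophage genes reached 116 CPM in MFL ILC1 against 34.3 elsewhere. The 5 tumor epithelium genes summed to 59.3 to 95.2 CPM in MFL ILC1 and 23.8 to 51.5 in CD49a+ LM NK cells, against 4.41 or less in CD49a- cells, with *Cdh1* at 46.0 to 74.7 and 14.3 to 51.5 CPM, *Epcam* at 12.4 to 20.5 and 0 to 10.5 CPM in these populations and *Krt19* at 0 in all 12 libraries. B cell genes stayed at 3.88 CPM or less, neutrophil genes at 0.189 or less and dendritic cell genes at 75.0 or less, and the 3 erythroid genes spanned 29.8 to 458. The part of any of these in the results above was not tested.

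The wider pathway was read from 4 lists with 57 further genes, 48 of them tested. Of 7 other SLAM receptors and SAP-type adaptors, 4 were tested. In CD49a+ LM NK cells 1 of these, *Cd48*, the ligand of 2B4, was lower than in NK cells of MFL (log2 fold change -1.73 ± 0.33, adjusted p = 0.013) and than in MFL ILC1 (-1.74 ± 0.33, adjusted p = 0.00371). *Cd48* had 134, 119.8 and 90.1 CPM in MFL NK cells, 59.9, 94.9 and 80.0 in CD49a- LM NK cells, 30.2, 46.2 and 27.2 in CD49a+ LM NK cells and 148, 87.6 and 111 in MFL ILC1. CD49a+ LM NK cells were thus low in both *Cd48* and the receptor *Cd244a* against MFL ILC1. No gene of this list passed in the other 4 comparisons.

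Of 8 ITAM or DAP10-linked receptors and adaptors with *Cd2*, all 8 were tested. *Cd247*, which encodes the CD3 zeta chain that NKp46 uses, was lower in MFL ILC1 than in the NK cells of MFL (-2.08 ± 0.31, adjusted p = 0.000275) and higher in CD49a+ LM NK cells than in ILC1 (1.61 ± 0.31, adjusted p = 0.00399). *Cd2*, the adhesion receptor for CD48, went the same way (-1.77 ± 0.25, adjusted p = 0.000149, and 1.68 ± 0.25, adjusted p = 0.000404). Both also passed the interaction, at 1.81 ± 0.42 for *Cd247* (adjusted p = 0.0526) and 1.94 ± 0.35 for *Cd2* (adjusted p = 0.00795), with a sign opposite to that of *Cd226*, *Cd160* and *Slamf7*. The list's other 6 genes, among them *Klrk1*, the gene of NKG2D, and *Tyrobp*, did not pass in any comparison. The list's median log2 fold change was lowest in CD49a+ LM NK cells against MFL NK cells, at -0.43, where the median of all genes was -0.04. It was -0.31 between the LM gates and -0.27 in MFL ILC1 against MFL NK cells (all genes 0.01 in both), and 0.15 in the interaction (all genes 0.04).

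All 30 proximal signalling genes were tested. In MFL ILC1 against MFL NK cells 4 were lower and 2 higher. The lower ones included the kinases *Fyn* (-1.31 ± 0.20, adjusted p = 0.000272), the partner of SAP, and *Syk* (-1.26 ± 0.25, adjusted p = 0.00491), and the phosphatidylinositol kinase subunit *Pik3r1* (-0.89 ± 0.24, adjusted p = 0.0583). The higher ones were the adaptor *Sh3bp2* (1.69 ± 0.35, adjusted p = 0.00743) and *Ubash3a*, a suppressor of lymphocyte receptor signalling (1.73 ± 0.34, adjusted p = 0.00461). *Plcg1* did not pass, although it had 87.4, 93.0 and 94.7 CPM in MFL ILC1 against 4.74, 4.72 and 4.18 in MFL NK cells. Its LM libraries were uneven, with 9.47, 0 and 4.33 CPM in CD49a- and 0, 0.0782 and 12.8 in CD49a+ NK cells.

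In CD49a+ LM NK cells against MFL ILC1 3 of the 30 were higher and 3 lower. The higher ones were the adaptor *Sh2d2a* (1.08 ± 0.30, adjusted p = 0.0786), the lipid phosphatase *Inpp5d* (0.70 ± 0.19, adjusted p = 0.059) and *Fyn* (0.68 ± 0.19, adjusted p = 0.0735). The lower ones were *Sh3bp2* (-1.80 ± 0.35, adjusted p = 0.00557), the kinase *Zap70* (-1.30 ± 0.29, adjusted p = 0.0146) and *Ubash3a* (-1.22 ± 0.34, adjusted p = 0.0645). *Ubash3a* was the 1 gene of the 4 lists that passed within LM, at 86.9, 54.5 and 61.5 CPM in CD49a+ against 24.3, 28.1 and 12.9 CPM in CD49a- NK cells (1.64 ± 0.34, adjusted p = 0.08). The medians of this list lay between -0.10 and 0.06 on the log2 scale in all 6 comparisons.

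Of 12 ligands and receptors that share them, 6 were tested. Among receptors that share ligands with DNAM-1, *Cd96* was higher in MFL ILC1 than in the NK cells of MFL (1.51 ± 0.42, adjusted p = 0.0642) and lower in CD49a+ LM NK cells than in ILC1 (-1.40 ± 0.42, adjusted p = 0.0893), as *Cd226* was. *Tigit* was higher in CD49a+ LM NK cells than in ILC1 (1.60 ± 0.44, adjusted p = 0.0646), at 192, 63.6 and 185 CPM against 48.9, 51.5 and 45.1 CPM. None of the 6 passed in the other 4 comparisons.

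**Figure D4:**
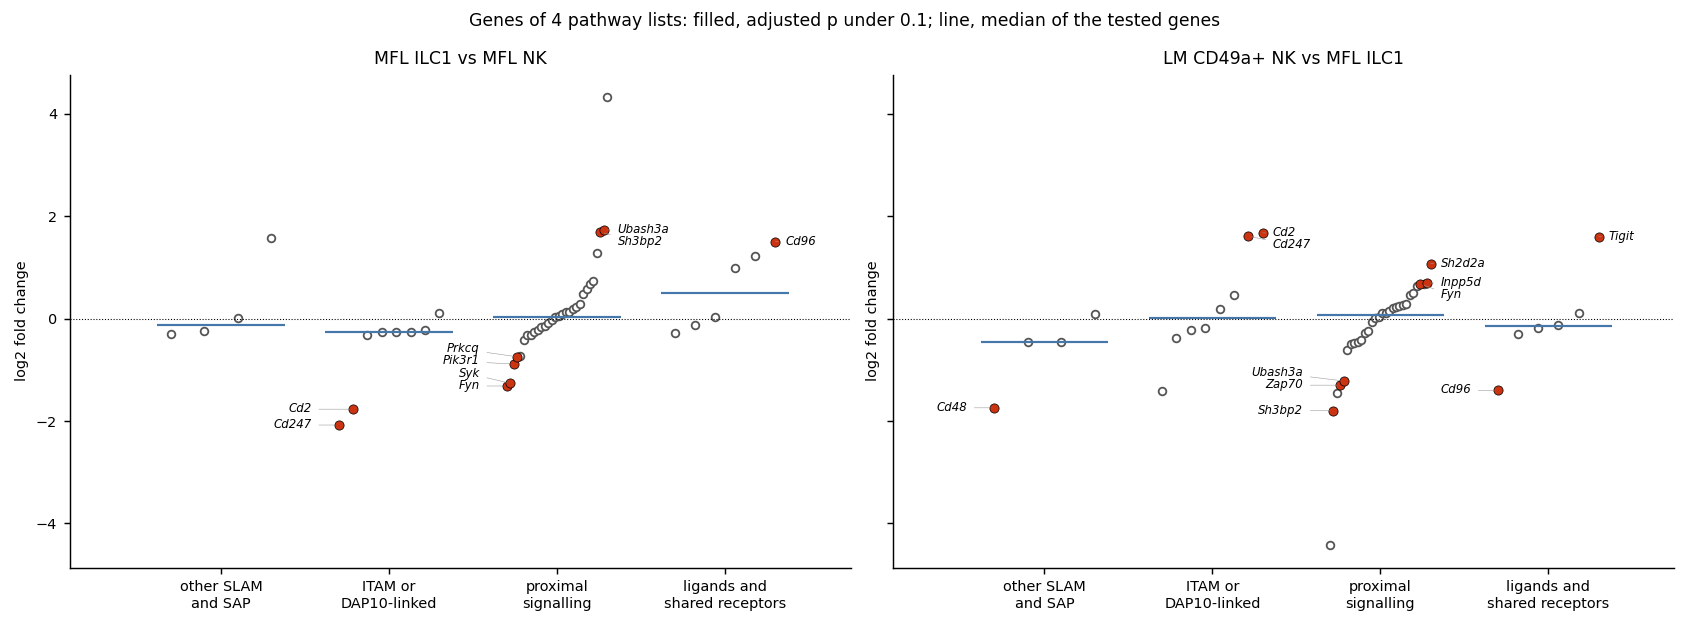
Log2 fold change (vertical axis) of the tested genes of the 4 pathway lists in MFL ILC1 against MFL NK cells (left) and in CD49a+ LM NK cells against MFL ILC1 (right), sorted by value within each list. Filled and named points passed an adjusted p under 0.1 and lines are list medians; *Cd247*, *Cd2* and *Fyn* lie below 0 on the left and above 0 on the right, and *Cd96*, *Sh3bp2* and *Ubash3a* the reverse.

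For the 6 genes called in at least 1 comparison, the most similar patterns over the 12 libraries were sought among 9774 genes, as the smallest root mean square difference of centred log2 CPM. The nearest to *Ncr1* was *Kif3b* (0.133), and the next *Nbeal2* (0.186). *Cd244a* was nearest to *Lgals8* (0.189) and *Cdca4* (0.237), and *Slamf7* to *Mxd4* (0.276) and *Rb1* (0.295). *Cd226* was nearest to *Trbc2* (0.444) and to *Cd160* (0.468), and *Cd160* to *Ifit1bl1* (0.459) and then *Cd226*, so that these receptors were among each other's 2 closest genes. *Sh2d1a* had no near pattern, with *Plod2* at 0.626 and *Abcg2* at 0.648. The points share libraries and depth, and no test was made.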

How the data were processed

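RNA was measured in 12 lymphocyte and 6 macrophage libraries. Per the labels and the study's methods, the authors made the lymphocyte libraries with a stranded total RNA kit, trimmed the reads, ran Salmon 1.5.0 against the transcripts of GENCODE M27 (GRCm39) and summed the transcripts of each gene. The deposited values of the lymphocyte table are estimated counts per gene without normalization, and all were whole numbers. Those of the macrophage table are counts per gene without normalization, and how they were made is not fully stated in the sources. The notes name Salmon 1.10.0 for the macrophages. Names and positions came from GENCODE vM39 (53700 of 54309 identifiers matched).

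With R 4.3.3 and edgeR 4.0.16, genes were kept by filterByExpr, libraries scaled by TMM, and the 12 libraries fitted together by the robust quasi-likelihood test with population as the only term. P-values were adjusted (Benjamini-Hochberg) over 13594 genes, and genes under 0.1 were called. The SE is the log2 fold change divided by the square root of F, and intervals are 95%. The test was tried on simulated data. Alternatives used limma 3.58.1 and DESeq2 1.42.0, plots Python 3.11.15 with matplotlib 3.10.9. CPM of the lymphocyte libraries are TMM-scaled, and those of the macrophage libraries are scaled to the library total alone. Levels between genes are compared per kilobase of merged exons.

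All 10 genes are described. From the pathway lists at most 3 called genes per direction, list and comparison are named with values, and the uncalled *Plcg1* besides. Likeness used log2 CPM with a prior count of 2 over genes with a mean of at least 5 CPM. Members, lists and tests were chosen with earlier results of these data known. Deviations from the population means were unrelated between same-numbered libraries (correlations from -0.0452 to 0.0981). As replicate numbers are not tied to the 3 sortings, this cannot show whether libraries of a sorting were related, and no pairing was used. P-values then measure only the spread between libraries of pooled mice. The marker lists are NK cells, ILC1, T cells, B cells, macrophages, neutrophils, dendritic cells, hepatocytes, tumor epithelium, erythroid and dissociation response.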

Additional observations from a re-analysis of the deposited data

Results flagged for a closer look

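The difference between CD49a+ and CD49a- cells was not the same in LM and MFL for 3 receptor genes, by a test of the interaction. The interaction was -2.36 on the log2 scale for *Cd226*, -3.02 for *Cd160* and -1.44 for *Slamf7*. Its call held in 17 of 18 alternatives for *Cd226* and 16 for *Slamf7*, but in only 8 for *Cd160*. The CD49b gate and the dissociation differed along with the site, and their part was not tested.

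The macrophage libraries, which entered no comparison of the report, listed 6 of the 10 genes. The lowest level in any of the 6 macrophage libraries was 0.23 CPM for *Cd226*, 16 for *Cd244a*, 7.52 for *Slamf6*, 20.1 for *Slamf7*, 3.30 for *Hcst* and 26.8 for *Sh2d1b1*. No library served as a background for these levels, and they were made in another way than the lymphocyte libraries, so levels are not compared between the tables.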

How the results depend on the processing

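*Cd226* and *Cd160* in both MFL ILC1 comparisons, and *Cd244a* and *Slamf7* in CD49a+ LM NK cells against MFL ILC1, kept direction and call in all 19 alternatives run. Of the 10 genes, between CD49a+ LM and MFL NK cells 2 were called with no low-count filter, 4 with DESeq2 and 1 with limma-voom and quality weights, against 0. Between MFL ILC1 and MFL NK cells 6 were called with limma-voom and 5 with only the compared libraries, against 3, and in the interaction 1 with limma-voom (*Slamf7*), against 3. With 1 library left out these counts ran from 0 to 2, from 2 to 3 and from 1 to 3, from 4 to 6 in CD49a+ LM NK cells against MFL ILC1, and stayed at 0 in the other 2 comparisons. Over all genes, in the order of the report's 6 comparisons (24, 96, 6, 436, 471 and 141 calls), DESeq2 called 919, 589, 309, 766, 1367 and 526. Limma-voom called 0 (746 at an unadjusted p under 0.05), 307, 104, 2645, 935 and 180. With no filter the first 3 and the last were 173, 286, 79 and 244, and with only the compared libraries the first was 3 and the fourth 1253. With 1 library left out the counts ran from 11 to 277, 44 to 189, 1 to 108, 259 to 589, 256 to 698 and 77 to 267. The replicate block called 25, 106, 10, 454, 458 and 117 genes and lost *Sh2d1a* in CD49a+ LM NK cells against MFL ILC1 (adjusted p = 0.119), and it changed no other call among the 10 genes. Without the robust option, an alternative chosen after seeing the data, 10 genes were called between CD49a- LM and MFL NK cells, and *Ncr1* and *Sh2d1a* were lost in CD49a+ LM NK cells against MFL ILC1 (adjusted p = 0.138 and 0.112), as they were with only the compared libraries in the fit (0.13 and 0.173). The cause of these shifts was not tested. Limma-voom gave medians of all genes of -0.27, -0.36 and -0.28 in CD49a+ LM and CD49a- LM NK cells against MFL NK cells and in CD49a+ LM NK cells against MFL ILC1, where the reported fit gave -0.04, -0.09 and -0.07, and the replicate block gave -0.21 in the second of these.

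In 33 of 1130 recomputed fold changes the sign turned, none of them called. Between the LM populations *Sh2d1a* was -0.13 with the replicate block. Between CD49a+ LM and MFL NK cells *Sh2d1b1* was 0.036 with median-of-ratios scaling, 0.0365 with DESeq2, 0.26 with limma-voom and 0.0012 with only the compared libraries. Between CD49a- LM and MFL NK cells limma-voom gave -0.28 for *Cd226*, -0.64 for *Cd160*, -0.28 for *Slamf6* and -0.20 for *Sh2d1a*, and the replicate block gave -0.46 for *Slamf6*. Between MFL ILC1 and MFL NK cells limma-voom gave -0.86 for *Crtam*, 0.0063 for *Hcst* and 0.071 for *Sh2d1b1*, and the replicate block -0.059 for *Crtam*. With 1 library left out, the ranges between the LM populations were -0.43 to 0.12 for *Cd244a*, -0.32 to 0.84 for *Cd160*, -0.25 to 1.36 for *Slamf6* and -0.27 to 0.66 for *Sh2d1a*. Against MFL NK cells they were -0.19 to 0.30 for *Sh2d1b1* in CD49a+ LM and, in CD49a- LM NK cells, -0.35 to 0.80 for *Cd160*, -0.44 to 1.18 for *Slamf6* and -0.11 to 0.67 for *Sh2d1a*. In MFL ILC1 they were -0.14 to 0.0078 for *Ncr1*, -0.71 to 0.32 for *Crtam* and -0.67 to 0.10 for *Hcst*, and in CD49a+ LM NK cells against MFL ILC1 -1.08 to 0.16 for *Hcst*. *Slamf6* and *Hcst* each had 0 counts in a library.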

Other observations

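In the metastasis-associated macrophages, sorted as CD11b+ cells with high or low F4/80, *Cd244a* and *Slamf7* had their higher levels in the F4/80 low libraries. *Cd244a* had 79.3, 84.7 and 71.9 CPM in F4/80 low and 17.4, 17.4 and 16 CPM in F4/80 high macrophages. *Slamf7* had 123, 119 and 88.8 CPM in F4/80 low and 31.6, 20.1 and 24.9 CPM in F4/80 high macrophages. *Slamf6* ran the other way, with 9.08, 10.2 and 7.52 CPM in F4/80 low and 20.1, 17.2 and 20.4 CPM in F4/80 high macrophages. *Cd226* had 4.8, 3.6 and 1.93 CPM in F4/80 low and 0.658, 0.230 and 0.469 CPM in F4/80 high macrophages. *Sh2d1b1* had 36.9, 39.7 and 34.9 CPM in F4/80 low and 29.3, 26.8 and 32.4 CPM in F4/80 high macrophages. *Hcst* lay between 3.30 and 5.15 CPM over the 6 libraries. The differences between the macrophage populations were not tested.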
